A study of Mus musculus with 11 samples.

Results

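Igf1r-deleted stromal cells from mouse bone marrow were compared with wild-type stromal libraries that also had a high level of Ly6a, the gene for the surface protein Sca1. Members were chosen by their measured Ly6a level, as the perinatal libraries with Ly6a at 100 CPM or more (CPM, the count over the library's total), which took in 6 of the 11 samples of the series: 3 knockouts and 3 wild types. All 11 samples were sorted on the receptor PDGFRa (Pdgfra), and polyA RNA from bone marrow stromal cells was measured by sequencing.

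The knockouts (K1, K2 and K3) are labelled PDGFRa+Sca1+ with Igf1r deleted and were Cre-positive by their titles. Of the wild-type libraries, W1 is labelled PDGFRa+Sca1+ and was Cre-negative by its title, whereas W2 and W3 are labelled PDGFRa+Sca1-. The label of W2 and W3 thus goes against their Ly6a level. The reverse holds for 2 further wild-type libraries labelled PDGFRa+Sca1+, L2 and L3. Their Ly6a was 13.8 and 10.04 CPM, far below the rule's 100 CPM. Deletion and Cre cannot be told apart here, and the sources used here give neither the Cre driver nor the age of the knockouts nor how many animals went into a library. The labels call the wild-type cells postnatal, and the series' design text calls them perinatal. Whether each library came from its own animal is not stated, so the p-values rest on a library-to-library spread that may be partly technical. The Y-linked counts given below differ between libraries within both groups.

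The insulin-like growth factor 1 receptor is a tyrosine kinase at the cell surface that binds the growth factors IGF1 and IGF2. It signals through the adaptors IRS1 and IRS2 to the PI3K, AKT and mTOR pathway and to the MAPK pathway, and AKT keeps the FoxO transcription factors out of the nucleus. In bone, IGF1 signalling is known for its part in growth and in the formation of osteoblasts from stromal progenitors. Sca1 marks stromal cells with features of fibroblast progenitors.

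Library totals ran from 13835467 to 23782217 counts, and 14232 genes were present in both deposited tables that hold these libraries, of which 13428 passed the filter on low counts. The libraries did not separate fully by genotype along their main axis of spread. Still, W1 and W3 lay at one end and K2 and K3 at the other, so the axis and genotype were partly mixed. The first principal component held 67.3% of the variance and ordered the libraries as W1, W3, K1, W2, K2 and K3. The share of counts in GC-rich genes followed the same order, at 31.3%, 26.1%, 25.9%, 21.2%, 19.9% and 15.7%. Y-linked transcripts (Ddx3y, Eif2s3y, Uty and Kdm5d) summed to 1334, 1895 and 2369 counts in W2, K2 and K3, and to 1, 1 and 3 counts in W1, W3 and K1. The most alike pair of libraries was W3 with K1, at a correlation of 0.978 across genes, and the least alike was W1 with K3, at 0.848. The part of these differences in the results below was not tested except where a value with them taken into account is given.

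**Figure D1:**
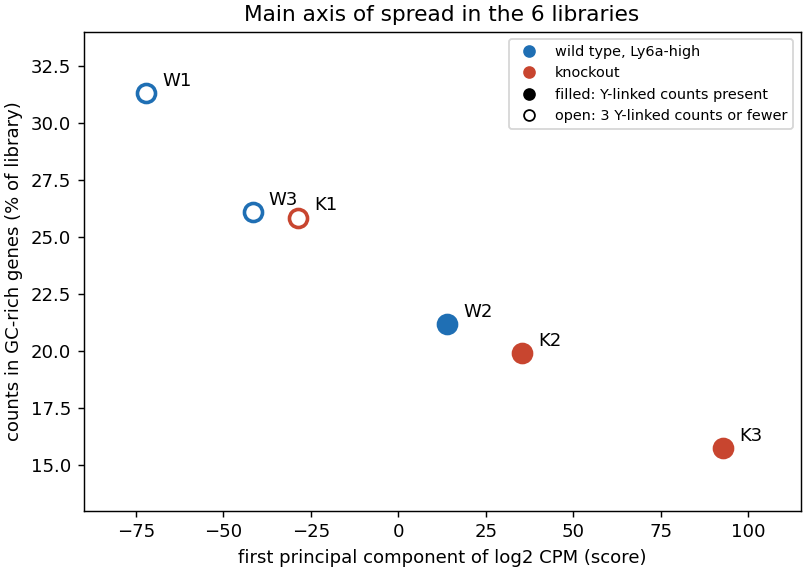
Share of counts in GC-rich genes (%) against the score on the first principal component of log2 CPM for the 3 Ly6a-high wild-type libraries (blue) and the 3 knockouts (red), filled where Y-linked counts were present. W1 sits at 31.3% at one end and K3 at 15.7% at the other, while W3 and K1 lie side by side.

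Ly6a, which chose the libraries, was at 425, 666 and 659 CPM in W1, W2 and W3 and at 768, 682 and 930 CPM in K1, K2 and K3. Every knockout was above every wild type, so the groups were not matched in Ly6a level. These values are a description of the choice and were not tested. Pdgfra, the gene for the sorted receptor, was at 259, 323 and 333 CPM in the wild types and at 357, 374 and 407 CPM in the knockouts, without overlap. Its log2 difference (knockout minus wild type, as throughout) was 0.34 (SE 0.218). Itgav, which encodes the integrin CD51, a sort marker named only for the adult samples, was at 39.4, 50.9 and 49.1 CPM against 42.9, 76.3 and 91.4 CPM, and the groups overlapped. The list of 22 fibroblast progenitor genes summed to between 18820 and 20650 CPM in the wild types and between 17680 and 19370 CPM in the knockouts, but to 6564 and 8145 CPM in L2 and L3. These genes are tied to Ly6a and so to the rule.

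The targeted gene was lower in every knockout library. Igf1r (ENSMUSG00000005533; chromosome 7, 67952827 to 68233668 on the plus strand, GENCODE M21, mm10) had 599, 394 and 355 counts in W1, W2 and W3, or 29.5, 25.8 and 25.7 CPM. In K1, K2 and K3 it had 182, 80 and 77 counts, or 8.20, 4.22 and 3.24 CPM. The groups did not overlap, and L2 and L3, at 31.7 and 30.7 CPM, lay beside the wild types. Mean CPM was 27.0 ± 2.19 (SD, n = 3) in wild type and 5.22 ± 2.63 (SD, n = 3) in knockout, so the knockout level was 0.193 of the wild-type level, and none of the knockout libraries was at 0. K1 kept the most, at over the combined level of K2 and K3. The log2 difference was -2.39 (SE 0.348), with the second smallest p of all genes (1.28e-04), but the adjusted p was 0.542 by edgeR's quasi-likelihood test with Benjamini-Hochberg adjustment, so Igf1r was not called.

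The direction of Igf1r held in all 22 alternatives run, with log2 differences from -2.81 to -2.05. It was called by DESeq2 (adjusted p 1.27e-06), without K1 (edgeR, adjusted p 0.0427) and with a term for Y-linked libraries (edgeR, adjusted p 0.0308, or 0.0493 with GC offsets added), and not in the others. Within the libraries that hold Y-linked counts (W2, K2, K3) the log2 ratio was -2.79, and within those that do not (W1, W3, K1) it was -1.75. Both tested neighbours within 200 kb, Ttc23 and Synm, had log2 differences between -0.269 and 0.411.

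**Figure D2:**
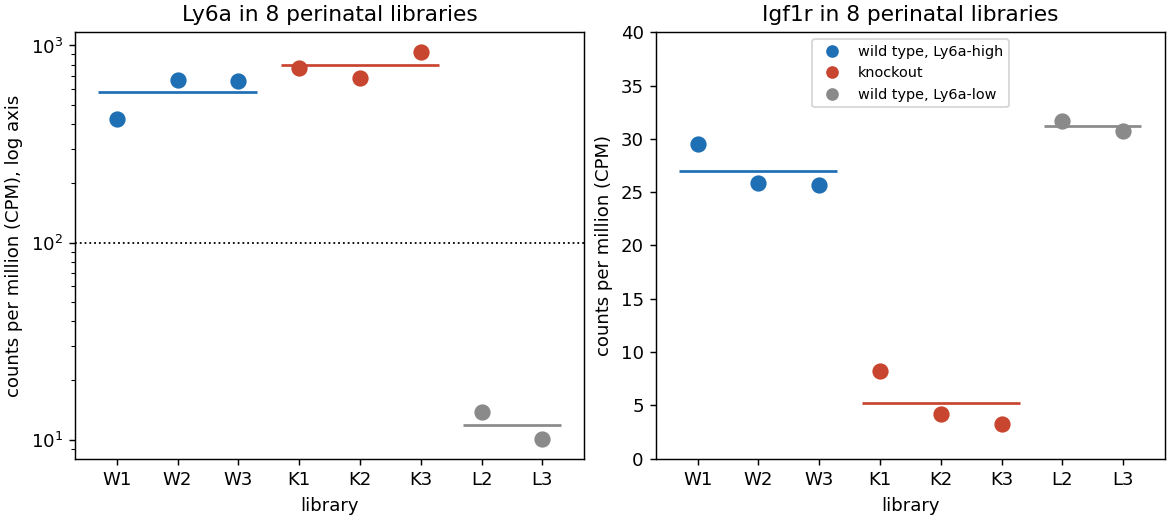
CPM of Ly6a (left, log axis, dotted line at the rule's 100 CPM) and Igf1r (right) in each of 8 perinatal libraries, with a line at each group's mean. For Igf1r the 3 knockouts lie between 3.24 and 8.20 CPM, below all 5 wild-type libraries, while for Ly6a they lie above W1 to W3.

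Across the transcriptome, 1 gene fell and none rose. By edgeR's quasi-likelihood test, 0 of 13428 genes were called higher (0%) and 1 was called lower (0.00745%), namely Msmp. At an unadjusted p under 0.05, 392 genes were higher (2.92%) and 363 lower (2.7%), together 5.62% of the genes tested. In 732 genes (5.45%) every knockout library was above every wild-type library, and in 639 (4.76%) every one was below. DESeq2 called 6 genes higher and 18 lower, or 0.179%. The median log2 difference of all genes was 0.0102. After Msmp, the adjusted p was 0.542 or more for every gene, so each gene named below is given by its values and was not called by edgeR. The share at an unadjusted p under 0.05 itself moved with the libraries used. When each library was left out it ran from 0.64% higher and 0.618% lower without W1 to 13.4% and 16.8% without K1. It was 8.32% and 5.87% without W2, 0.704% and 0.961% without W3, 1.25% and 1.13% without K2 and 1.31% and 1.46% without K3. The list counts below are to be read beside 2.92% and 2.7%. A list count without a library is to be read beside that setting's own shares. The spread within groups was wide, with a biological coefficient of variation of 35.3%.

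**Figure D3:**
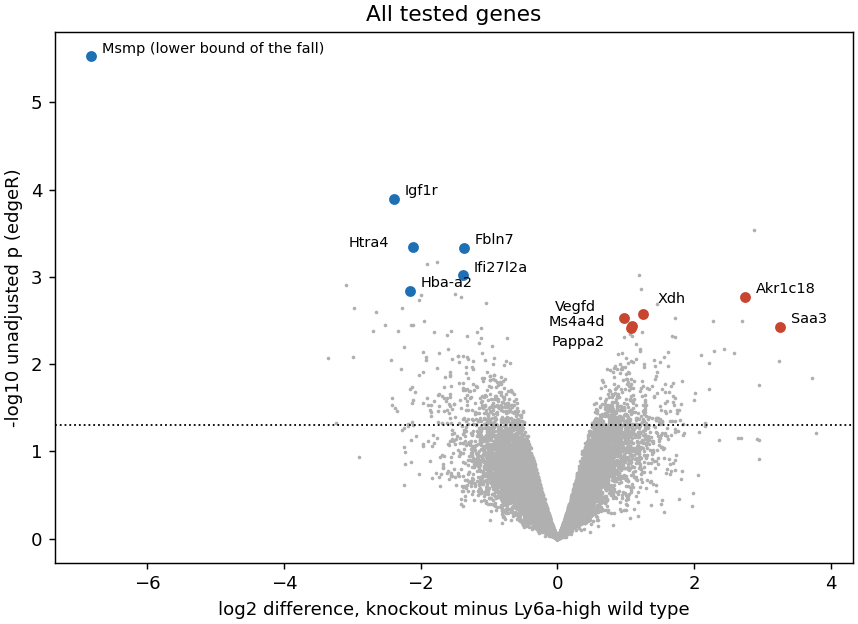
Negative log10 of the unadjusted edgeR p against the log2 difference for the tested genes, with genes named by p where groups did not overlap and mean log2 CPM reached 3 (blue lower, red higher in knockout) and a dotted line at p of 0.05. Msmp is drawn at the bound set by the floor of 3 counts, and Igf1r at -2.39 comes next by p.

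Msmp, which encodes microseminoprotein, a small secreted protein, fell to no detected count in the knockouts. It lies at chromosome 4, 43583216 to 43584494 on the minus strand (ENSMUSG00000078719). Its counts were 340, 361 and 182 in W1, W2 and W3, and 0 in each of K1, K2 and K3. L2 and L3 held still more, with 862 and 942 counts. Against a floor of 3 counts per library, Msmp was at least 113-fold lower in the knockouts (adjusted p 0.0397, edgeR's quasi-likelihood test; 9.57e-15, DESeq2). No other tested gene was at 0 in all libraries of one group and above 0 in all of the other.

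The Msmp locus sets a limit on this value. All 743 exonic bases of Msmp lie inside the last exon of Rgp1 (43582860 to 43587487), which is read from the opposite strand, and the sources used here do not give the strand setting of the counting. Rgp1, which encodes a partner of a Rab exchange factor at the Golgi, had 577, 278 and 349 counts in the wild types and 572, 326 and 406 in the knockouts, with a log2 difference of -0.27 (SE 0.272), and the groups overlapped. Among 17 tested neighbours within 200 kb, 2 had an unadjusted p under 0.05 and none was called. These were Car9, a hypoxia-induced carbonic anhydrase, at -1.11, and Fam221b at -1.10. The Msmp call was lost in 11 of 22 alternatives, in which the adjusted p reached at most 0.321. By edgeR the adjusted p was 0.321 without W1, 0.122 without W2, 0.150 without W3 and 0.218 without K2.

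Genes were named by p only where the groups did not overlap and the mean log2 CPM reached 3, leaving out predicted genes, so genes with a smaller p that missed these conditions are passed over. On the lower side these were, after Msmp and Igf1r, Htra4, Fbln7, Ifi27l2a and Hba-a2. Htra4, a secreted serine protease, was at 63.6, 32.6 and 64.1 CPM in W1, W2 and W3 and at 13.3, 16.4 and 7.65 CPM in K1, K2 and K3, a log2 difference of -2.10 (SE 0.370). The groups did not overlap, but L2 and L3, at 5.78 and 11.1 CPM, were as low as the knockouts. Fbln7, an extracellular matrix protein of the fibulin family, was at 36.6, 25.7 and 37.0 CPM against 14.1, 12.1 and 12.3 CPM, a log2 difference of -1.36 (SE 0.240). Here all 5 wild-type libraries were above the knockouts, with L2 and L3 at 53.5 and 70.1 CPM. Ifi27l2a, an interferon-inducible gene, was at 13.7, 8.92 and 13.3 CPM against 4.73, 4.90 and 4.12 CPM, and as with Htra4 the L2 and L3 levels of 3.64 and 5.12 CPM were near those of the knockouts. The 23 tested genes of the interferon-stimulated list had no member at an unadjusted p under 0.05, and that list does not hold Ifi27l2a. Htra4, Fbln7, Ifi27l2a and Hba-a2 were among the DESeq2 calls, at adjusted p of 3.62e-04, 0.00144, 0.0131 and 0.00392.

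On the higher side the same choice gave Akr1c18, Xdh, Vegfd, Ms4a4d, Saa3 and Pappa2. Akr1c18, the enzyme that inactivates progesterone, was at 1.38, 2.89 and 2.67 CPM in W1, W2 and W3 and at 5.63, 13.4 and 25.2 CPM in K1, K2 and K3, a log2 difference of 2.74 (SE 0.592). The wild types stayed under 3 CPM while the knockouts were spread over a wide range. Xdh, xanthine dehydrogenase of purine breakdown, was at 4.88, 5.25 and 5.13 CPM against 17.1, 8.75 and 10.7 CPM, a log2 difference of 1.26 (SE 0.293). Vegfd, a growth factor for lymphatic vessels, was at 8.19, 10.4 and 8.82 CPM against 16.5, 19.4 and 17.4 CPM, a log2 difference of 0.97 (SE 0.232). Ms4a4d, a membrane protein of the MS4A family, was at 4.54, 6.23 and 5.20 CPM against 14.6, 10.2 and 9.08 CPM. L2 and L3 were at or under 5.05 CPM for Akr1c18, Xdh, Vegfd and Ms4a4d, so the knockouts were above all 5 wild-type libraries for these genes. Of these 6 genes DESeq2 called Akr1c18 (adjusted p 0.00392) and Saa3 (adjusted p 0.0120).

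**Figure D4:**
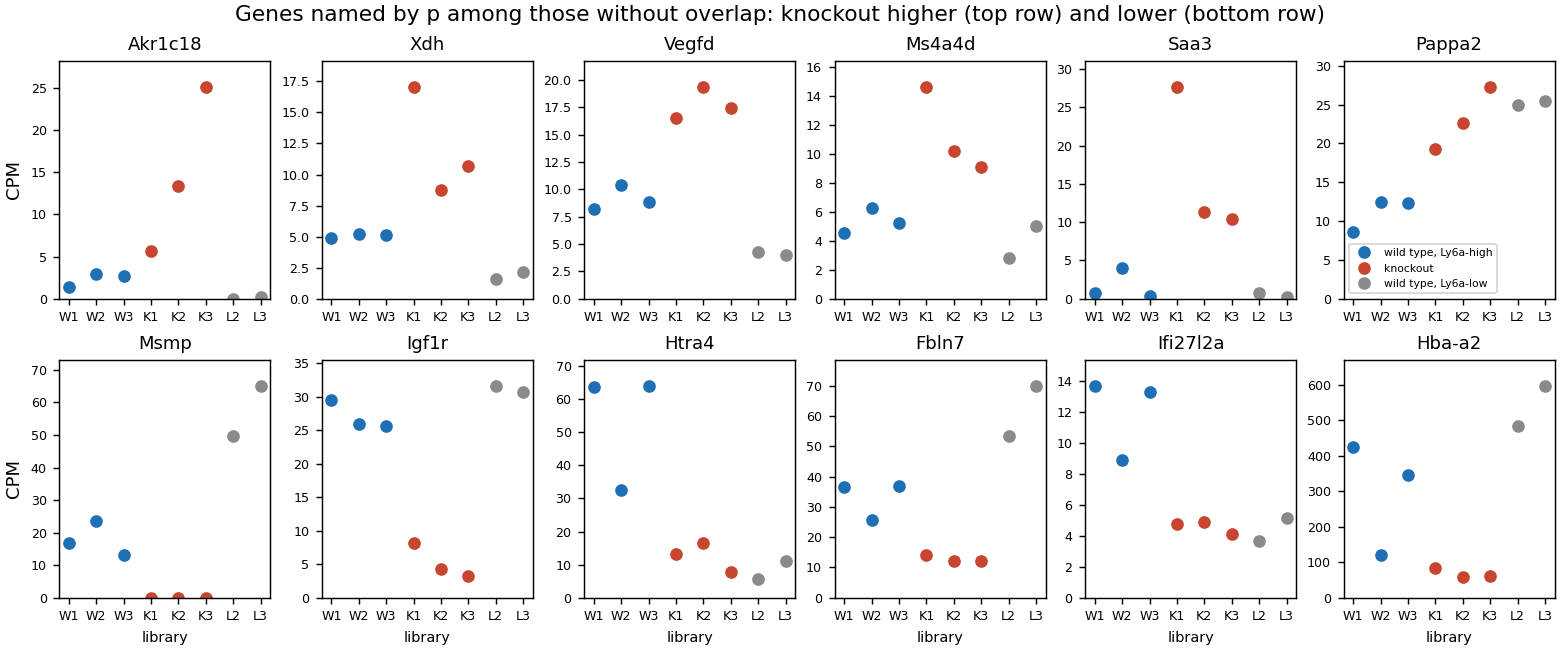
CPM in each of the 8 perinatal libraries for the 6 genes in each direction with the smallest p, limited to genes whose groups did not overlap, whose mean log2 CPM reached 3 and which are not predicted genes, with W1 to W3 in blue, K1 to K3 in red and L2 and L3 in grey. Non-overlap of knockouts with W1 to W3 was a condition of the choice, and L2 and L3, which the choice did not use, lie with the knockouts for Pappa2, Htra4 and Ifi27l2a.

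Among the 5 tested ligands and receptors of the IGF axis, Igf1r alone had a log2 difference beyond 1 in size. Igf1 was at 523, 964 and 638 CPM in the wild types and at 627, 833 and 1232 CPM in the knockouts, and Igf2 was at 1694, 2465 and 2264 CPM against 2787, 1822 and 1668 CPM. Both overlapped between the groups, with log2 differences of 0.38 (SE 0.358) and -0.03 (SE 0.260), and the sign of each turned in some alternatives. Insr, the insulin receptor, was at 7.79, 10.6 and 10.7 CPM against 12.1, 16.2 and 23.4 CPM, without overlap, and its log2 difference was 0.87 (SE 0.324, unadjusted p 0.0275). K3, at the far end of the first component, held the most Insr, and the difference was positive in each of 22 alternatives (0.42 to 1.11). Igf2r, which clears IGF2 from the cell surface, was at 609.8, 1022 and 649 CPM against 614, 847 and 2327 CPM, and only K3 was above the wild types.

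Of 11 tested IGF binding proteins and binding-protein proteases, 2 had an unadjusted p under 0.05 on the higher side and 1 on the lower. Over all genes the shares were 2.92% and 2.7%. Over the alternatives 0 to 3 list members were higher and 1 to 3 lower. Pappa2 and Pappa, proteases that release IGFs from their binding proteins, were the higher pair. Pappa2 was at 8.58, 12.5 and 12.4 CPM in the wild types and 19.3, 22.6 and 27.3 CPM in the knockouts, a log2 difference of 1.08 (SE 0.270). Pappa was at 4.78, 6.82 and 3.61 CPM against 11.8, 8.27 and 10.8 CPM, a log2 difference of 1.03 (SE 0.32). Neither overlapped between the groups, but L2 and L3, at 25.0 and 25.4 CPM of Pappa2 and 10.8 and 9.28 CPM of Pappa, were at the knockout level. Stc1, stanniocalcin 1, a secreted inhibitor of these proteases, was at 16.0, 11.2 and 17.1 CPM against 7.80, 7.48 and 2.40 CPM, a log2 difference of -1.34 (SE 0.421). The binding proteins with the highest mean CPM, Igfbp6 and Igfbp5, overlapped between the groups, with log2 differences of -0.50 (SE 0.270) and -0.07 (SE 0.216).

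Downstream, none of the 24 tested adaptors and PI3K and AKT genes had an unadjusted p under 0.05 in either direction, and their median log2 difference was 0.00607. Without W2 the counts were 3 higher and 1 lower, and without K1 2 higher and 5 lower. Irs1 was at 17.9, 11.6 and 17.6 CPM against 16.9, 15.6 and 11.02 CPM, and Irs2 at 100.5, 54.8 and 75.8 CPM against 88.1, 47.1 and 34.4 CPM, and both overlapped. Among 18 mTOR genes 1 was higher at that p and 0 lower, against 2.92% and 2.7% of all genes. None passed in either direction without W1, W3, K2 or K3. Without K1, 3 were higher and 7 lower, where the shares of all genes were 13.4% and 16.8%. The 1 higher gene as reported was Rictor, the scaffold of mTOR complex 2. Rictor was at 7.003, 10.95 and 10.2 CPM against 12.2, 16.5 and 14.5 CPM, without overlap, a log2 difference of 0.64 (SE 0.266). Of the 4 FoxO factors, Foxo3 had a log2 difference of 1.01 (SE 0.428), with K3 at 166 CPM and the other libraries between 45.7 and 97.8 CPM. Of 21 tested FoxO target genes, 2 were higher at an unadjusted p under 0.05 (Insr and the cell cycle inhibitor Cdkn1b) and none lower, against 2.92% and 2.7% of all genes, and their median was 0.0181. None was higher without W1, W3 or K3, and 2 were higher and 2 lower without K1. For Cdkn1b the difference of 1.72 (SE 0.728) came with 71.8 CPM in K3, whereas K1 and K2, at 11.8 and 18.1 CPM, lay near W2 at 17.4 CPM. Among 12 tested MAPK feedback genes only Spry2, an inhibitor of receptor signalling, passed an unadjusted p under 0.05, at 75.4, 193 and 106 CPM against 108, 349.8 and 621 CPM, with overlap. No member of that list passed without W1, W3, K2 or K3, and 2 were higher and 4 lower without K1.

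Inflammatory genes were the list with the most members on the higher side. Of 19 tested members, 8 were higher at an unadjusted p under 0.05 and 0 lower, against 2.92% and 2.7% of all genes, and 17 had a positive difference. The median log2 difference was 0.538, beside 0.0102 over all genes. It was smaller in some alternatives chosen after seeing the data, at 0.273 with GC offsets, 0.262 with the replicate block and GC offsets, 0.326 with a term for Y-linked libraries and 0.329 with that term and GC offsets. None was called by edgeR. Across the alternatives 4 to 10 members were higher and none lower at that p, with 4 without W1 and 5 without W3 or without K2. Saa3, an acute-phase serum amyloid A protein, was at 0.740, 4.0 and 0.361 CPM in W1, W2 and W3 and at 27.7, 11.4 and 10.4 CPM in K1, K2 and K3, a log2 difference of 3.26 (SE 0.808). Every knockout held more than any of the 5 wild-type libraries, since L2 and L3 were at 0.693 and 0.208 CPM. Lcn2, lipocalin 2, which binds bacterial siderophores, was at 5.28, 5.51 and 5.20 CPM against 21.7, 7.96 and 9.12 CPM, a log2 difference of 1.26 (SE 0.383). K1 was the highest library for both of these acute-phase genes.

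Cytokine and chemokine genes made up most of the rest. Il1rl1, the receptor for interleukin 33, was at 5.03, 10.8 and 6.79 CPM against 16.3, 17.7 and 18.3 CPM, a log2 difference of 1.23 (SE 0.314). Cxcl5, a chemokine that draws neutrophils, was at 6.71, 9.64 and 5.78 CPM against 16.9, 14.5 and 14.5 CPM, a log2 difference of 1.06 (SE 0.272). Both were even within the knockouts and above all 5 wild-type libraries. The monocyte chemokines Ccl2 and Ccl7 behaved otherwise. Ccl2 was at 444, 1621 and 499.5 CPM against 935, 2486 and 3616 CPM, and Ccl7 at 283, 1211 and 402 CPM against 625, 1907 and 3800.1 CPM. In each, W2 lay above K1, so the groups overlapped, and within both genotypes the libraries with Y-linked counts were the higher ones. Ptgs2, the inducible cyclooxygenase, was at 32.7, 41.8 and 47.3 CPM against 49.98, 82.7 and 62.1 CPM, but L2 and L3, at 65.1 and 54.5 CPM, lay among the knockouts. Hp, haptoglobin, was at 13.8, 14.7 and 11.7 CPM against 35.8, 14.8 and 19.9 CPM, and L2 and L3 were higher still, at 65.1 and 76.1 CPM.

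In all, 8 of 19 inflammatory members had every knockout above every wild type, against 5.45% of all genes. Besides Saa3, Lcn2, Il1rl1, Cxcl5, Ptgs2 and Hp these were Tnfaip3, a feedback inhibitor of NF-kB, and Cxcl2, a neutrophil chemokine. The log2 differences of Tnfaip3 and Cxcl2 were 0.53 (SE 0.243) and 0.36 (SE 0.198). This set is not that of the 8 at an unadjusted p under 0.05, which holds Ccl2, whose groups overlapped. NF-kB is the transcription factor best known for switching on this class of gene. RefSeq promoters (GRCm38.p6) were found for 6 of these 8 genes and for 13 of the 19 tested. The NF-kB consensus motif of 10 bases, searched on both strands of the 250 bases before each start, was present for 2 of the 6, Cxcl2 and Tnfaip3, and for 5 of the 13, and in 5.0% of all 32851 promoters. The other matches among the 13 were for Il6, Cxcl1 and Nfkbia, which were not among the 8 without overlap. Nfkbia, the tested member with the highest mean CPM, had a log2 difference of -0.26 (SE 0.284), with overlap. A match is a description of the letters and not a shown site. The Cxcl2 sequence is printed because, of Cxcl2 and Tnfaip3, only Cxcl2 has its motif wholly before the first annotated exon. It is from chr5:90903649-90903870 on the plus strand, ending at the base before that exon, with the motif in capitals.
Cxcl2: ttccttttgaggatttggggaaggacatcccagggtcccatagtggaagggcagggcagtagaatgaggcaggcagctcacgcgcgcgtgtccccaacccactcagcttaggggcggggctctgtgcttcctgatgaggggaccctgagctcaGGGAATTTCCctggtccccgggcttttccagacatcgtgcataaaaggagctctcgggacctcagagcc

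Transcripts that mark blood cells were detected in the sorted stroma, and those of red cells were at lower levels in the knockouts. Of 10 red cell genes listed, 8 were in both tables and 6 were tested, and 1 of the 8 was at 0 in W2. At an unadjusted p under 0.05, 5 of the 6 were lower and 0 higher, against 2.7% lower and 2.92% higher over all genes. The median log2 difference was -2.13. In the alternatives 4 to 7 were lower, with medians of -1.54 with the Y-linked term and -1.34 with that term and GC offsets. The list summed to 1244, 318 and 959 CPM in W1, W2 and W3 and to 248, 157 and 169 CPM in K1, K2 and K3, without overlap, and to 1302 and 1666 CPM in L2 and L3. Hba-a2, an alpha globin, was at 425, 120.5 and 347 CPM against 83.8, 57.4 and 60.3 CPM, a log2 difference of -2.15 (SE 0.454), and W2 lay closest to the knockouts. The other alpha globin Hba-a1 and the beta globins Hbb-bs and Hbb-bt followed at -2.27 (SE 0.516), -1.95 (SE 0.469) and -2.11 (SE 0.519). These globins are near-identical pairs, so reads could have been split between copies in the counting. Alas2, the first enzyme of haem synthesis in red cells, was at 6.31, 1.51 and 6.94 CPM against 1.85, 0.843 and 0.378 CPM, with W2 inside the knockout range. In bulk samples, fewer cells of a type and less RNA per cell cannot be told apart.

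Neutrophil genes were mostly on the lower side too. Of 11 tested, 4 were lower at an unadjusted p under 0.05, and 1, Lcn2, which is also on the inflammatory list, was higher. Over all genes the shares were 2.7% lower and 2.92% higher. The lower count was 6 without K1, 7 without W2 or K3 and 3 without W3 or K2. The list summed to 84.1, 66.0 and 125 CPM in W1, W2 and W3 and 64.0, 29.6 and 60.8 CPM in K1, K2 and K3, so W2 and K1 were close. In L2 and L3 it summed to 47.48 and 72.55 CPM, and L2 thus lay within the knockout range. Ltf, lactoferrin of neutrophil granules, was at 6.66, 5.05 and 8.46 CPM against 2.48, 1.58 and 1.85 CPM, a log2 difference of -1.76 (SE 0.328). Mpo, myeloperoxidase, was at 12.8, 2.89 and 11.3 CPM against 2.12, 0.738 and 1.43 CPM, a log2 difference of -2.65 (SE 0.614). Neither overlapped, and as with the globins W2 was the wild type nearest the knockouts. Ngp and Camp, further granule genes, had log2 differences of -1.12 (SE 0.292) and -1.28 (SE 0.445). Elane was at 0 in K2. The 4 globins, Ltf and Mpo were among the 18 genes that DESeq2 called lower.

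Macrophage genes were low in all libraries, at a sum of 41.5, 29.4 and 46.7 CPM in W1, W2 and W3 and 38.9, 24.6 and 20.1 CPM in K1, K2 and K3 over the 11 of 15 listed genes in both tables, with overlap. C1qa was at 0 in K3. Of 8 T and NK cell genes listed, only 1 was in both tables. That gene was at 0.592 CPM or less in each of the 6 libraries and was not tested. The summed markers of red cells and of neutrophils were thus lower in the knockouts than in W1 to W3, opposite in sign to the inflammatory list. For neutrophils this did not hold against L2, and the summed macrophage markers overlapped. The part of blood cells in the inflammatory values was not tested.

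**Figure D5:**
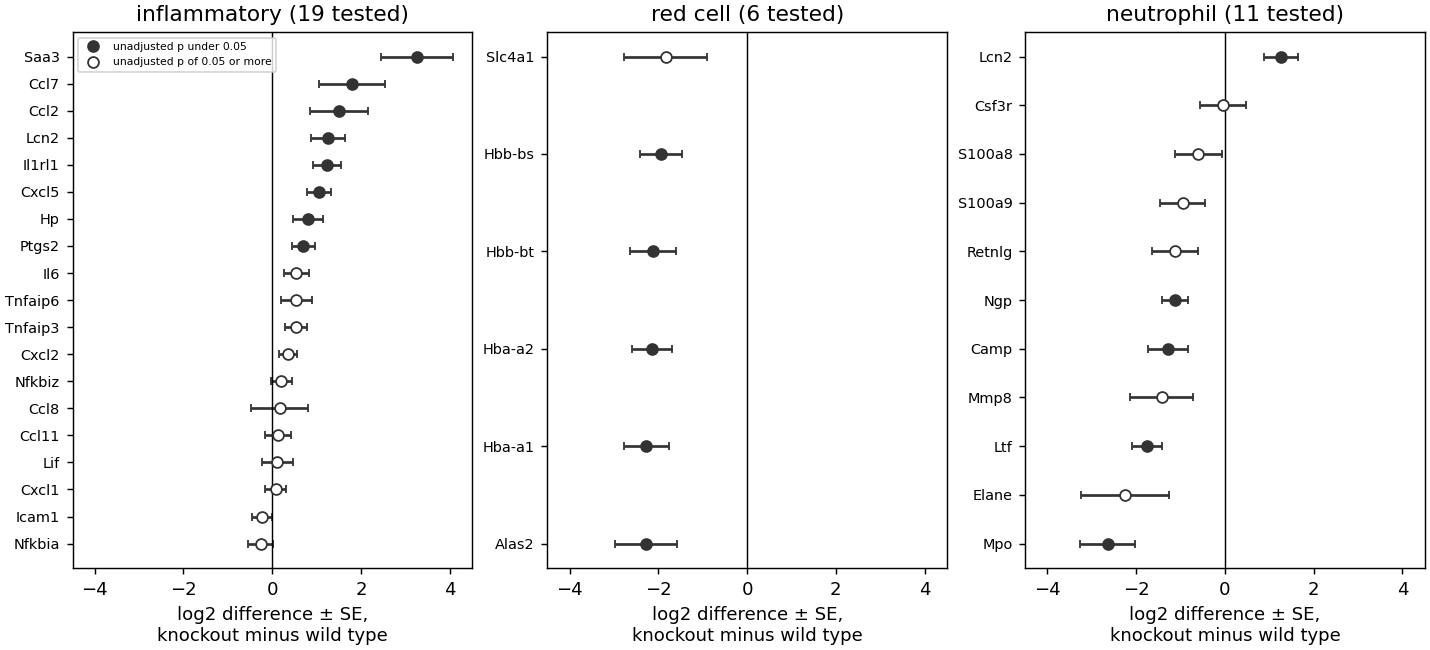
Log2 difference (knockout minus Ly6a-high wild type) with its SE for each tested member of the inflammatory, red cell and neutrophil lists, filled where the unadjusted edgeR p was under 0.05. Inflammatory members lie mostly right of 0 with a median of 0.538, and all 6 red cell members lie left of it with a median of -2.13.

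Among skeletal genes, cartilage members lay mostly on the lower side, with 17 of 20 tested negative. At an unadjusted p under 0.05, 5 were lower and 0 higher, against 2.7% lower and 2.92% higher over all genes. The median log2 difference was -0.465. The median was -0.25 with GC offsets and -0.0958 with the Y-linked term and GC offsets. The count was 10 without K1, 3 without W2 or W3, 2 without W1 or K3 and 1 without K2. Matn1, a cartilage matrix protein, was at 3.85, 2.30 and 2.17 CPM against 0.721, 0 and 0.0841 CPM, close to the limit of detection in the knockouts. Cnmd, chondromodulin, an inhibitor of vessel growth in cartilage, was at 41.1, 43.0 and 50.3 CPM against 19.2, 20.2 and 32.7 CPM, a log2 difference of -0.86 (SE 0.289). Sox9, the master transcription factor of chondrocytes, was at 108, 80.5 and 89.3 CPM against 80.2, 52.5 and 51.5 CPM, a log2 difference of -0.60 (SE 0.253). Chad and Col9a1 completed the 5, at -1.09 (SE 0.420) and -0.98 (SE 0.407). Col2a1, the main collagen of cartilage, overlapped between the groups (131, 48.9 and 117 CPM against 102, 25.5 and 56.0 CPM). All of this was small beside the Ly6a-low libraries, where Col2a1 stood at 3642 and 4649.8 CPM and the list summed to 8503 and 10040 CPM, against 952 to 1344 CPM in the other 6 libraries.

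Of 18 tested osteoblast and osteocyte genes, 2 were higher at an unadjusted p under 0.05 and 0 lower. The shares of all genes were 2.92% and 2.7%. In the list, 1 was higher without W1 or W3, and 1 was higher and 2 lower without K1. Over the list 10 members were positive and 8 negative, with a median log2 difference of 0.233. That median was -0.219 without K1 and 0.0139 with the replicate block, so the list had no settled sign. Ibsp, bone sialoprotein, was at 4.04, 23.5 and 5.999 CPM in W1, W2 and W3 and 46.6, 42.8 and 70.5 CPM in K1, K2 and K3, a log2 difference of 2.28 (SE 0.638) without overlap. Spp1, osteopontin, was at 35.7, 83.8 and 52.8 CPM against 156, 59.9 and 147 CPM, a log2 difference of 1.10 (SE 0.435), and K2 lay inside the wild-type range. Both were far higher in L2 and L3, at 473 and 466 CPM of Ibsp and 4627 and 4369 CPM of Spp1. Of 20 marrow niche genes, 3 were higher and 1 lower at that p, against 2.92% and 2.7% of all genes. These counts were 0 and 0 without W1, W3 or K3, 1 and 0 without K2, and 5 and 3 without K1. The list held 11 positive and 9 negative differences, with a median of 0.0777. Without overlap, 3 members were above and 3 below, against 5.45% and 4.76% of all genes. Ebf1 was among those below, at 264, 252 and 267 CPM against 227, 235 and 160 CPM. Its log2 difference was -0.33 (SE 0.221). Lepr, the leptin receptor that marks adult marrow stroma, was at 15.3, 35.0 and 26.4 CPM against 32.1, 53.5 and 74.8 CPM, and Grem1, a BMP antagonist, at 3.01, 2.75 and 2.96 CPM against 3.83, 5.43 and 6.52 CPM. Of 14 adipocyte genes, 0 were higher and 2 lower at that p, against 2.92% and 2.7% of all genes. Pparg, the master regulator of fat cells, was at 4.78, 6.62 and 5.78 CPM against 3.38, 3.004 and 3.11 CPM without overlap (log2 difference -0.84, SE 0.276). Dgat2, an enzyme of triglyceride synthesis, was at -1.26 (SE 0.454) with overlap. The count lower was 0 without K2, 1 without W1 or K3 and 7 without K1, and without W2 it was 3, with 2 higher.

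Among metabolic genes, 5 of 26 cholesterol and fatty acid synthesis genes were lower at an unadjusted p under 0.05 and 0 higher. Over all genes the shares were 2.7% lower and 2.92% higher. The list had a median log2 difference of -0.313, with 22 members negative and 4 positive. Its sum overlapped, at 1515, 1259 and 1658 CPM in W1 to W3 and 1090, 1284 and 1479 CPM in K1 to K3. Insig1 and Hmgcs1, the members with the highest mean CPM, had differences of 0.95 (SE 0.538) and -0.03 (SE 0.316), also with overlap. Mvd, which makes isopentenyl diphosphate, was at 47.0, 15.3 and 32.3 CPM against 15.1, 10.6 and 9.08 CPM, a log2 difference of -1.46 (SE 0.418). Fdft1, squalene synthase, was at 56.5, 39.8 and 73.5 CPM against 29.8, 37.3 and 30.5 CPM, a log2 difference of -0.78 (SE 0.266). Neither overlapped, though W2 and the knockouts were close in both. Dhcr7, Lss and Mvk, enzymes of the same pathway, had differences of -1.001 (SE 0.385), -0.88 (SE 0.352) and -1.02 (SE 0.415) with overlap. The count went from 0 to 12 members lower over the alternatives, with 1 without W1 or W3, 2 without K2, 3 without K3, 9 without W2 and 8, with 3 higher, without K1. The median was -0.17 without W1 and -0.185 without W3. Of 20 mitosis genes, 2 were higher and 0 lower, with a median of 0.384, against 2.92% and 2.7% of all genes. None was higher without W1, K2 or K3, and 9 were higher and 1 lower without K1, and the median was 0.154 with GC offsets. Top2a, the topoisomerase of dividing cells, was at 43.6, 69.6 and 60.5 CPM against 62.7, 104 and 111 CPM. Its groups overlapped, and at an unadjusted p of 0.0513 (edgeR) it was not among the higher genes counted. Cdc20, the mitosis member with the highest mean CPM, had a log2 difference of -0.29 (SE 0.305), with overlap. In that list 14 members were positive and 6 negative.

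Of 17 tested complement genes, 3 were higher and 2 lower at an unadjusted p under 0.05, against 2.92% and 2.7% of all genes. These counts were 0 and 2 without W3, 1 and 1 without W1 and 2 and 0 without K2. C3, the central component, was at 16.8, 37.3 and 18.2 CPM against 66.1, 44.1 and 42.6 CPM, a log2 difference of 1.08 (SE 0.349) without overlap, and stood at only 1.79 and 2.08 CPM in L2 and L3. Cd59a, which protects cells from complement, had a difference of 0.99 (SE 0.338). Clu, clusterin, was at 87.5, 93.6 and 91.5 CPM against 73.0, 35.8 and 36.0 CPM, a log2 difference of -0.92 (SE 0.292), and Vtn, vitronectin, at -1.36 (SE 0.489). The lists of ribosomal proteins (25 genes), nuclear respiratory chain (25), matrix proteases (17) and imprinted growth genes (15) had 0 members at an unadjusted p under 0.05 in either direction. Without K1 the respiratory chain list had 8 higher and the matrix protease list 1 higher and 5 lower. Without W2 the ribosomal list had 4 higher, and with the replicate block and GC offsets it had 7 higher. The shares of all genes were 13.4% and 16.8% without K1, 8.32% and 5.87% without W2 and 5.01% and 4.22% with the block and GC offsets. By sign, 21 of 25 ribosomal and 20 of 25 respiratory chain members were positive, with medians of 0.288 and 0.235. Matrix proteases had 7 positive and 10 negative members, and imprinted growth genes 6 and 9.

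The authors' deposited table compares the same 3 knockouts with W1, L2 and L3, so it shares 4 of its 6 libraries with the comparison here, and the values stand side by side only. For Igf1r the authors' deposited table gives a log2 difference of -2.55 (adjusted p 7.51e-09), beside -2.39 here. For Saa3 the authors' deposited table gives 4.87, beside 3.26 here, and for Fbln7 -2.02, beside -1.36. The gap was widest for genes at which L2 and L3 stood apart from W1. For Col2a1 the authors' deposited table gives -5.47 (adjusted p 9.92e-04), beside -0.71 (SE 0.524) here. For Spp1 the authors' deposited table gives -4.55 (adjusted p 0.0311), beside 1.10 here, so its sign depended on which wild-type libraries served as the control. For Ly6a itself the authors' deposited table gives 2.34 (adjusted p 0.321).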

How the data were processed

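PolyA RNA libraries of sorted mouse bone marrow stromal cells were analysed from raw counts per gene, deposited by the authors in separate tables for each comparison. The submitters' processing notes name Trimmomatic 0.32, mm10 and DESeq2. The sources used here do not give the aligner, counter, annotation or strand setting. The authors' log2 fold changes and adjusted p-values were deposited beside the counts, per the file headers, and are quoted only where named.

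W1 and the knockouts came from the knockout table (14910 genes), W2 and W3 from the Sca1 table (14267 genes), joined on Ensembl identifier (14232 genes). L2 and L3, present in both tables, had equal counts for 99.17% and 97.95% of genes, so the tables were made alike but not identically. Of the genes, 804 were not tested. Because the members and the gene lists were chosen with earlier results of these data known, list counts carry no test of their own.

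The fit used filterByExpr, TMM factors and edgeR 4.0.16 (glmQLFit with robust estimation, glmQLFTest; R 4.3.3) with genotype as the only term. P-values were adjusted by Benjamini-Hochberg over 13428 genes and called under 0.05. The SE is the log2 difference over the square root of F. CPM is the count over the library total. A floor of 3 counts per library was used for genes at 0, which covers counting error only. The code was tested on counts simulated without the GC and Y-linked differences between libraries. That checks the code and not how the fit performs on these libraries. GENCODE M21 gave coordinates and GC content, and GC-rich genes are the 2686 with a GC content of at least 55.6%.

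Genes named were a fixed set of IGF and sort genes, the 6 genes with the smallest p in each direction whose groups did not overlap and whose mean log2 CPM reached 3, leaving out predicted genes, and list members. List members under an unadjusted p of 0.05, Car9, Fam221b and the genes under other observations were chosen after their values were seen. Alternatives were other scaling factors, DESeq2 1.42.0, filters, each library left out, a replicate block, other wild-type libraries, thinned counts and, chosen after seeing the data, a Y-linked term, GC offsets and leaving out W1 with K3. Replicate numbers did not pair libraries: same-number deviations correlated at 0.557, 0.122 and -0.214. Results on some genes are not reported here.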

Additional observations from a re-analysis of the deposited data

How the results depend on the processing

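The count of genes called higher was 0 in every alternative but DESeq2, which called 6 higher and 18 lower. The count lower, 1 as reported, ran from 0 to 3 when each library was left out (0 without W1, W2, W3 or K2, 1 without K3, and 3 without K1, namely Msmp, Igf1r and the predicted gene Gm6863). It was 0 against all 5 wild-type libraries, with thinned counts, with GC offsets and without both W1 and K3. It was 2 (Msmp and Igf1r) with the Y-linked term, with or without GC offsets. With the replicate block it was 0, as it was with the block and GC offsets together. For Igf1r the log2 difference was -2.39 by DESeq2, -2.28 with the Y-linked term and -2.29 with GC offsets added, all called, and from -2.81 to -2.16 when each library was left out. The replicate block gave Igf1r -2.46 (edgeR, adjusted p 0.212).

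Several genes near 0 changed sign. When each library was left out, the log2 difference ran from -0.236 to 0.0891 for Igf2, from -0.287 to 0.0364 for Irs1, from -0.0788 to 1.14 for Igf2r and from -0.124 to 0.0206 for Igfbp5. Against W1 alone, the only chosen wild type in the knockout table, Igf2 was at 0.232 and Igfbp5 at 0.0495. That alternative has no spread among wild types. Against all 5 wild-type libraries Igf2 was at 0.166, Igfbp5 at 0.25, Hp at -0.584, Ibsp at -1.78, Spp1 at -3.85 and Grem1 at -0.0228, and this alternative adds L2 and L3, in which Hp, Ibsp, Spp1 and Grem1 were higher than in W1 to W3. The Y-linked term gave Irs1 0.0453. GC offsets gave Igf1 -0.115, Igf2 0.337, Igfbp6 0.147, Rgp1 0.207 and Col2a1 0.0123. With the Y-linked term added these were -0.175 for Igf1, 0.241 for Igf2, 0.185 for Rgp1 and 0.14 for Col2a1, beside 0.0686 for Irs1 and 0.0533 for Irs2. The replicate block with GC offsets gave -0.117 for Igf1, 0.393 for Igf2, 0.138 for Igfbp6 and 0.193 for Rgp1. Without both W1 and K3, Igf1 was at -0.129, Igf2r at -0.19, Irs1 at 0.167 and Irs2 at 0.0498. Apart from the construction of the alternatives, the cause of these changes was not tested. Genes at an unadjusted p under 0.05 by edgeR, 392 higher and 363 lower as reported, numbered 87 and 84 without W1, 96 and 131 without W3, 172 and 155 without K2, 178 and 199 without K3, 1138 and 803 without W2, and 1818 and 2285 without K1. They numbered 71 and 72 without both W1 and K3, 723 and 1061 with the replicate block, 673 and 567 with the block and GC offsets, 751 and 620 with the spread shared with L2 and L3, and 1453 and 1008 against all 5 wild-type libraries. DESeq2 put 615 higher and 504 lower at that p.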

Other observations

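Some genes outside the lists and the naming rule stood out, and were chosen after their values were seen. Tnfsf8, the ligand of the receptor CD30, was at 0.641, 1.44 and 0.940 CPM in W1, W2 and W3 and at 4.33, 10.3 and 7.06 CPM in K1, K2 and K3, with L2 and L3 at 0.982 and 0.692 CPM. Every knockout was above all 5 wild-type libraries, and the log2 difference was 2.87 (SE 0.472; DESeq2 adjusted p 8.34e-05; edgeR adjusted p 0.542). Chst7, a sulfotransferase of matrix polysaccharides, was at 12.1, 5.77 and 12.9 CPM against 3.11, 2.64 and 2.44 CPM, a log2 difference of -1.91 (SE 0.359), and L2 and L3, at 4.39 and 4.02 CPM, lay between the groups. Cpz, a secreted carboxypeptidase that binds Wnt proteins, was at 74.1, 36.7 and 66.3 CPM against 26.6, 20.5 and 16.2 CPM, a log2 difference of -1.49 (SE 0.319), below all 5 wild-type libraries. Of 20 genes of the unfolded protein and amino acid stress list, 2 were higher at an unadjusted p under 0.05 by edgeR and 0 lower. Over all genes the shares were 2.92% and 2.7%. Both were enzymes that make amino acids. The count higher was 0 without W3 or K2, 1 without W1 or K3, and 4, with 2 lower, without K1. Asns, which makes asparagine, was at 15.3, 24.7 and 17.9 CPM against 27.4, 54.8 and 35.6 CPM, and Psat1, of serine synthesis, at 20.9, 28.5 and 24.8 CPM against 31.4, 42.0 and 41.0 CPM, both without overlap.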
